A study of Mus musculus with 79 samples.

Results

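Somatostatin (SST) neurons were set directly against vasoactive intestinal peptide (VIP) neurons of the medial prefrontal cortex in control mice, so that the 2 inhibitory neuron types were compared with each other and not with the mean of all types. The comparison used 20 libraries, 10 of SST and 10 of VIP neurons, of the 79 in the series. Every library held the RNA of 130 cells, pooled within 1 mouse, and each of the 10 control mice gave 1 SST and 1 VIP library. The control animals were male C57Bl/6J mice housed in groups with littermates, of an age the labels do not state. The same contrast was read in 10 SST and 10 VIP libraries of UCMS mice, males of the same strain that were housed singly and met mild stressors of changing kind for 5 weeks. Cells were found by RNAscope, an in situ hybridization of RNA, with a probe for the type, in 12 µm sections, and were cut out by laser. The probed genes, Sst and Vip, therefore check the capture and are no finding. The remaining libraries came from parvalbumin (PV) and pyramidal (PYR) neurons and are used only to place a gene's level.

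Cortical interneurons slow or silence other neurons by releasing GABA. SST neurons are born in the medial ganglionic eminence (MGE) of the embryo under the factor Lhx6, and many of them, the Martinotti cells, contact the distal dendrites of pyramidal neurons. VIP neurons come from the caudal ganglionic eminence (CGE), carry the serotonin-gated channel Htr3a, and mostly inhibit other interneurons, SST neurons among them. Both types also package peptides into dense-core vesicles, which makes peptides and their receptors a second line of signalling between them.

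The capture held against its probes. Sst had a lowest, median and highest value of 7131, 12726 and 20779 normalized counts in SST libraries and 0, 144 and 1081 in VIP libraries. Vip had 0, 2.42 and 304 in SST libraries and 3148, 4796 and 7701 in VIP libraries. Neither gene overlapped between the types. The highest Sst value of a VIP library came from mouse U3 and the highest Vip value of an SST library from mouse U10. Pvalb, the defining gene of PV neurons, averaged 37.9 ± 85.4 in SST and 11.9 ± 27.3 in VIP libraries, against 816 ± 422 in PV libraries (mean ± SD over 10 libraries of a type, here and below).

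SST libraries were deeper, with 9.84 ± 1.96 M reads against 7.49 ± 2.74 M reads in VIP libraries, higher in 9 of 10 mice, and the difference missed the threshold after correction (two-sided exact permutation test over the sign flips of the 10 within-mouse differences, p = 0.0234, adjusted p = 0.0547 over 14 measures). Genes detected averaged 13639 ± 2845 in SST and 13610.5 ± 2671 in VIP libraries (adjusted p = 0.973). Gene models annotated as microRNAs took 24.6% ± 3.10 of the reads in SST and 20.3% ± 2.88 in VIP libraries (higher in 8 of 10 mice, adjusted p = 0.0328 by the same exact permutation test). Protein-coding genes took 62.0% ± 3.66 and 65.0% ± 2.87 of the reads in SST and VIP libraries (adjusted p = 0.109).

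Across the transcriptome, 426 of 18177 genes differed between the types at an adjusted p under 0.05 by limma-trend with the mouse as a block: 189 were higher in SST neurons (1.04% of genes tested) and 237 were lower (1.3%). Of these, 146 were at least 2-fold higher (0.803%) and 183 at least 2-fold lower (1.01%). Fold changes below are differences of log2(normalized count + 4), SST minus VIP, and their median over all genes was -0.05. Protein-coding genes made up 403 of the 426. The called share over all genes tested was 2.34%, and the counts of called list members below stand beside it. The values of the 10 SST and the 10 VIP libraries did not overlap at all for 31 of the higher and 43 of the lower genes, and 210 of the 426 kept one direction in 10 of 10 mice. Among all genes tested, 74 (0.407%) had no overlap and 271 (1.49%) kept one direction in every mouse.

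**Figure D1:**
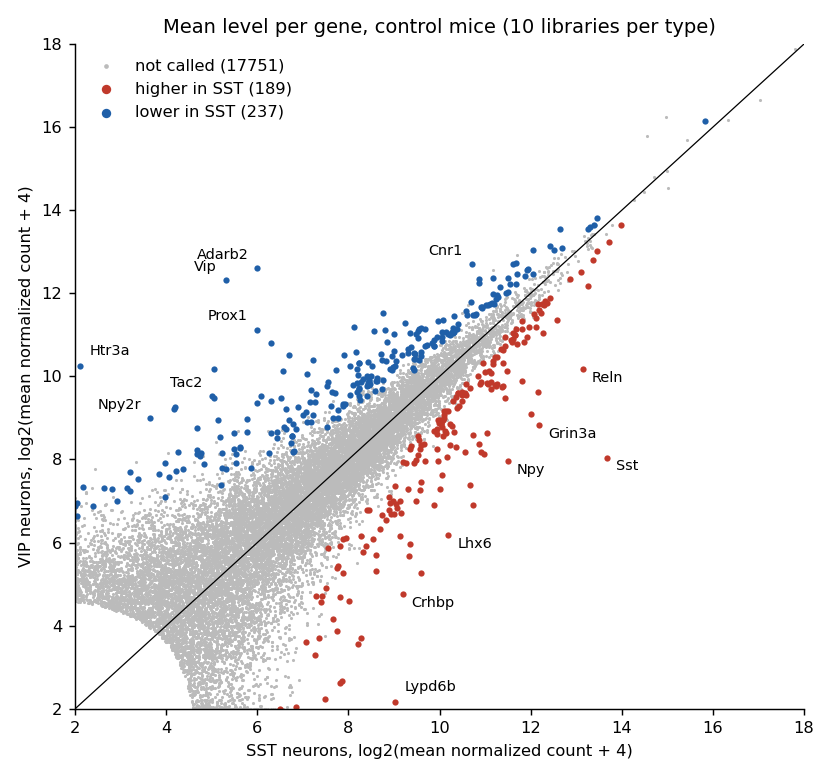
Mean level of each tested gene in SST libraries (x axis) and VIP libraries (y axis) of control mice, both as log2(mean normalized count + 4), with 10 libraries per type. Red points are the 189 genes called higher in SST neurons, blue points the 237 called lower, grey points were not called, and the line marks equal levels. Sst and Vip, the probed genes, lie with Grin3a, Reln and Lhx6 on one side and Adarb2, Htr3a and Prox1 on the other.

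The lineage factors divided by birthplace. Of 7 MGE factors tested, 4 were higher in SST neurons and none lower, with a median log2 difference of 3.0 against -0.05 over all genes. Lhx6, the factor that directs MGE-born interneurons, had a lowest, median and highest value of 756, 1160.2 and 1577 normalized counts in SST libraries and 0, 65.2 and 179 in VIP libraries. Every SST library stood above every VIP library, and the log2 difference was 4.72 (SE 0.62, adjusted p = 1.63e-09). Satb1, a chromatin organizer that acts downstream of Lhx6, had 2500.2, 3880.3 and 5589 in SST libraries and 141, 547 and 779.8 in VIP libraries, again without overlap, with a difference of 3.004 (SE 0.23, adjusted p = 3.28e-22). Sox6, which acts in the same lineage, averaged 1030.4 ± 292 in SST and 152 ± 215 in VIP libraries, higher by 4.07 (adjusted p = 1.39e-07). Sox6 overlapped between the types, since 1 VIP library reached 704 normalized counts. Maf, a bZIP factor, at 448 ± 256 in SST and 589 ± 282 in VIP libraries, was not called.

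Of 14 factors of the CGE list, 8 were lower in SST neurons and none higher, with a median log2 difference of -1.51. Prox1, a homeobox factor required in CGE-born interneurons, had 0, 5.07 and 250.3 normalized counts in SST libraries and 1212, 1927 and 3547 in VIP libraries, with no overlap and a difference of -6.92 (SE 0.67, adjusted p = 8.60e-16). It was at 0 in 4 SST libraries. Zbtb16, a zinc finger repressor, averaged 373 ± 217 in SST and 2173 ± 741 in VIP libraries, a difference of -2.74 (adjusted p = 6.00e-12). Zeb2, a zinc finger factor, averaged 2298 ± 676 in SST and 5270.1 ± 951 in VIP libraries, without overlap, a difference of -1.23 (adjusted p = 1.64e-11). It was counted on the CGE list although it is known for its part in the migration of MGE-born cells. Nfix and Nfib, nuclear factor I proteins, differed by -1.86 and -2.003, and Tcf4, a basic helix-loop-helix factor, by -0.63. In PYR libraries Zbtb16, Zeb2, Nfix and Nfib averaged 648 ± 219, 2232 ± 465, 1598 ± 362 and 1179 ± 324, so they are not confined to VIP neurons. Not every CGE factor moved: Nr2f2, at 284 ± 229 in SST and 421 ± 306 in VIP libraries, and Npas1, at 857 ± 271 in SST and 689 ± 219 in VIP libraries, were not called. Outside the lists, Sall1, a zinc finger factor, averaged 59.9 ± 93.8 in SST and 652 ± 313 in VIP libraries, a difference of -5.08 (adjusted p = 2.80e-06).

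Dlx1, a homeobox factor of interneurons in general, was lower in SST neurons, at 632 ± 208 in SST and 1613 ± 313 in VIP libraries (log2 difference -1.40, adjusted p = 1.24e-04), and so was the noncoding Dlx6os1, at 275 ± 153 in SST and 2315 ± 742 in VIP libraries (log2 difference -3.36, adjusted p = 3.58e-14). Dlx6os1 overlaps Dlx6 on the opposite strand. Of 143 genes named here and in the other observations, 43 overlap a measured gene model on the opposite strand, Sox6, Satb1, Prox1, Zeb2, Dlx1, Adarb2, Reln, Nos1, Egfr, Pde5a, Caln1, Grin2b, Homer2, Chrm2 and Scn1a among them. Whether counting used the strand is not stated in the labels, so the reads of such pairs cannot be told apart. Of the 143, 25 overlap a measured gene model on the same strand, Grin3a, Satb1, Reln, Kctd8, Unc13c, Nxph1 and Erbb4 among them. How reads of these overlaps were assigned is not stated either.

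**Figure D2:**
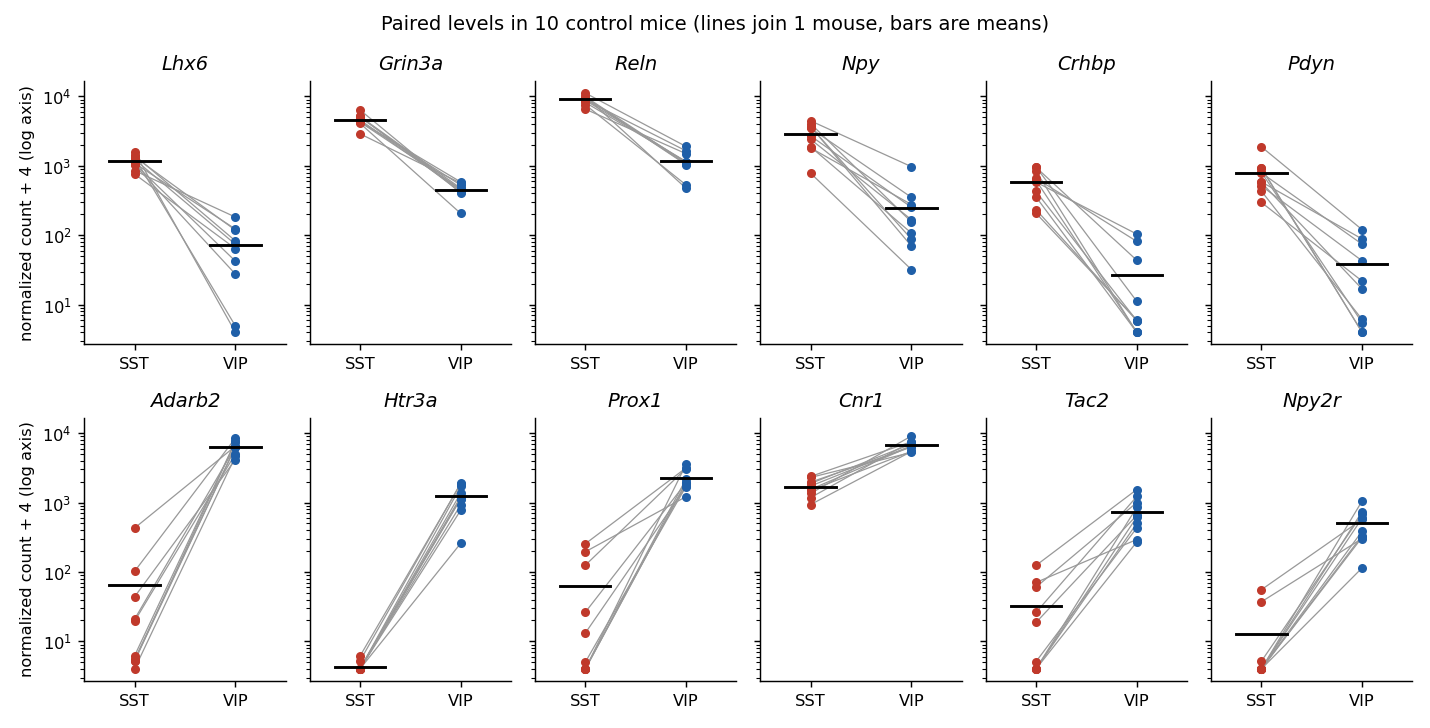
Normalized count + 4 on a log axis for 12 genes, each panel with the 10 SST libraries on the left in red and the 10 VIP libraries on the right in blue. Grey lines join the libraries of 1 mouse and black bars are means. All lines of Lhx6, Grin3a, Reln, Npy, Crhbp and Pdyn fall toward VIP and all lines of Adarb2, Htr3a, Prox1, Cnr1, Tac2 and Npy2r climb.

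Of 24 tested genes of peptides, their binding and processing proteins and neurexophilins, 7 were higher in SST neurons and 4 lower. The median log2 difference was 0.02, and the called share over all genes tested was 2.34%. Npy, the precursor of neuropeptide Y, had 778, 3083 and 4445 normalized counts in SST libraries and 28.1, 158 and 969 in VIP libraries. It was higher in 10 of 10 mice by 3.999 (SE 0.34, adjusted p = 9.37e-19), although the VIP library of mouse U3 exceeded the lowest SST library. Crhbp, the protein that binds and sequesters corticotropin-releasing hormone, had 204, 597 and 959 in SST libraries and 0, 1.95 and 100 in VIP libraries, with no overlap (log2 difference 5.44, adjusted p = 1.29e-06). Pdyn, the dynorphin precursor, had 293, 686 and 1879 in SST libraries and 0, 15.3 and 116 in VIP libraries, also without overlap (log2 difference 5.16, adjusted p = 3.96e-07). Nxph1, a secreted ligand of alpha-neurexins, averaged 1696 ± 509 in SST and 116 ± 89 in VIP libraries (log2 difference 4.58, adjusted p = 3.61e-12). Cort, the precursor of the somatostatin relative cortistatin, lay outside the naming rule and was picked after its values were seen: it averaged 219.9 ± 250.3 in SST and 2.18 ± 6.88 in VIP libraries (log2 difference 4.49, adjusted p = 9.56e-04).

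Lower in SST neurons were Tac2, the neurokinin B precursor, Cck, the cholecystokinin precursor, and Penk, the enkephalin precursor, which like Cort was picked after its values were seen. Tac2 had 0, 7.89 and 120 normalized counts in SST libraries and 266, 631 and 1536 in VIP libraries, with no overlap and a difference of -5.49 (adjusted p = 3.15e-07). Cck averaged 297 ± 237 in SST and 1269 ± 552 in VIP libraries, a difference of -2.88 (adjusted p = 2.60e-06), and Penk averaged 342 ± 155 in SST and 1296 ± 536 in VIP libraries, a difference of -1.93 (adjusted p = 4.26e-05). SST and VIP neurons thus each held one opioid precursor at the higher level, dynorphin in SST and enkephalin in VIP neurons. Crh, the hormone that Crhbp binds, averaged 194 ± 173 in SST and 336 ± 262 in VIP libraries and was not called (log2 difference -0.91, adjusted p = 0.719).

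Expression of Sst is textbook for its dependence on the cyclic AMP response element (CRE), whose full form reads TGACGTCA and whose core reads TGACG, or CGTCA on the other strand. The promoter sequences of the peptide genes that differed are shown to let that element be seen beside the values. They are from RefSeq on GRCm38.p6, the last 100 bases before the annotated start, 5′ to 3′ on the gene's strand, with the core, or the full form in Sst, in capitals. Of the probed and called peptide genes, 11 of 13 had an entry, and in 6 of those 11 at least 1 core lay within 250 bases before a start. Of all 32851 promoter windows of that length in the table, 17.8% held a core on either strand and 1.55% the full palindrome.
Sst (chr16:23890845-23890944, minus strand): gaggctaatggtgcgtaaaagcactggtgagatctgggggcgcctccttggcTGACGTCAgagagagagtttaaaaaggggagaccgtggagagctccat
Vip (chr10:5639118-5639217, plus strand): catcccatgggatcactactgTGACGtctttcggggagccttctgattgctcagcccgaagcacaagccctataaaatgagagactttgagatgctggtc
Crhbp (chr13:95444832-95444931, minus strand): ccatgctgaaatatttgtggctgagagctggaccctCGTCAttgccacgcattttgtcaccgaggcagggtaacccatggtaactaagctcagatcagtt
Cort (chr4:149126764-149126863, minus strand): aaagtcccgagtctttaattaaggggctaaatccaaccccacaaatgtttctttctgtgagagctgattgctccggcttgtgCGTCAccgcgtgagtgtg
Cck (chr9:121495695-121495794, minus strand): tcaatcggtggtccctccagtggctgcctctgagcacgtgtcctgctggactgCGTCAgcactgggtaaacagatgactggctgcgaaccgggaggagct
Npy (chr6:49822610-49822709, plus strand): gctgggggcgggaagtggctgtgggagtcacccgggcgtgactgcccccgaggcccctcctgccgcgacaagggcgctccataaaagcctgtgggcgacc
The site began 48 bases before the annotated start of Sst and was the full palindrome. It began 79 bases before the start of Vip, 64 before that of Crhbp, 18 before that of Cort, 47 before that of Cck and 34 before that of Pcsk2, a peptide-processing protease that was lower in SST neurons. The Npy window, shown for contrast, held neither form, nor did those of Pdyn, Tac2, Nxph1 and Nxph2, a second neurexophilin. Genes higher in SST neurons and genes lower in them both appear among those with a site and those without. A match of letters is a description and not evidence that a factor binds there.

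Peptide receptors were divided between the types as well. Of 27 tested, 4 were higher in SST neurons and 4 lower, against a called share of 2.34% over all genes tested. The median log2 difference was 0.00. Oxtr, the oxytocin receptor, averaged 479.8 ± 213 in SST and 120.1 ± 143 in VIP libraries and was higher in 10 of 10 mice (log2 difference 3.81, adjusted p = 6.86e-04). Oprd1, the delta opioid receptor, averaged 558 ± 532 in SST and 67.6 ± 73.7 in VIP libraries (log2 difference 3.56, adjusted p = 0.00209). Sstr1, a somatostatin receptor, averaged 335 ± 183 in SST and 107 ± 133 in VIP libraries (log2 difference 2.90, adjusted p = 0.0288). Lower in SST neurons was Npy2r, a neuropeptide Y receptor, with 0, 0 and 51.4 normalized counts in SST libraries and 110.2, 475 and 1047 in VIP libraries, with no overlap (log2 difference -6.03, adjusted p = 3.96e-07). It was at 0 in 7 of 10 SST libraries. A second such receptor, Npy1r, averaged 95.5 ± 134 in SST and 419.9 ± 241 in VIP libraries (log2 difference -3.14, adjusted p = 0.0198). The receptor for gastrin-releasing peptide, Grpr, averaged 10.4 ± 21.8 in SST and 198 ± 155 in VIP libraries (log2 difference -3.87, adjusted p = 0.00842). So Npy itself was higher in SST neurons while both of these receptors for it were higher in VIP neurons. Sstr1 and Npy1r each lost the call when any of 5 of the 10 mice was left out.

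Ionotropic glutamate receptors differed by subunit. Grin3a, an NMDA receptor subunit that lowers calcium entry, had 2889.9, 4513 and 6394 normalized counts in SST libraries and 202, 450.1 and 582 in VIP libraries. The lowest SST library stood well above the highest VIP library, and the difference was 3.38 (SE 0.22, adjusted p = 4.65e-27). Grin2b, the subunit with slow kinetics, was lower in SST neurons at 11188 ± 1084 in SST and 14287 ± 2696 in VIP libraries, a difference of -0.33 (adjusted p = 0.00137). The obligatory subunit Grin1, at 2207 ± 568 in SST and 2510 ± 659 in VIP libraries, was not called, nor were Grin2a, Grin2c and Grin2d.

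Kainate receptors and their partners had 5 of 9 tested members called, 4 higher in SST neurons and 1 lower. The median log2 difference over the list was -0.01, and the called share over all genes tested was 2.34%. Grik3, a kainate subunit, had 2852, 4334 and 8478 normalized counts in SST libraries and 182, 823 and 1338 in VIP libraries, without overlap (log2 difference 2.62, SE 0.21, adjusted p = 1.25e-21). Grik1, a second subunit, averaged 2763 ± 1704 in SST and 715 ± 303 in VIP libraries (log2 difference 1.96, adjusted p = 0.0402), and was not called without 5 of the 10 mice left out in turn. The auxiliary proteins Neto1 and Neto2, which bind kainate receptors and slow their closing, averaged 2459.9 ± 708 against 894 ± 253 and 1919 ± 571 against 287 ± 189.5 in SST against VIP libraries. They were higher by 1.45 (adjusted p = 5.27e-07) and 3.04 (adjusted p = 3.88e-12). Grik4, a subunit of high affinity, was lower at 92.6 ± 68.8 in SST and 437 ± 292 in VIP libraries (log2 difference -2.46, adjusted p = 0.0378), and was not called without 7 of the 10 mice in turn.

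Among 16 AMPA receptor genes, 2 subunits were higher in SST neurons and 1 auxiliary gene lower. Gria1 had 7751, 9113 and 13215 normalized counts in SST libraries and 3198, 4765 and 6489.8 in VIP libraries, again without overlap, a difference of 1.08 (SE 0.10, adjusted p = 5.07e-16). Gria3 averaged 2455 ± 523 in SST and 1417 ± 679 in VIP libraries (log2 difference 0.95, adjusted p = 0.00135). Gria2, the subunit that blocks calcium entry, averaged 4613 ± 651 in SST and 5914 ± 331 in VIP libraries and was not called (log2 difference -0.37, adjusted p = 0.0536). Gsg1l, an auxiliary subunit that dampens AMPA currents, was lower at 131 ± 127 in SST and 475 ± 295 in VIP libraries (log2 difference -2.65, adjusted p = 0.0162). It was not called without mouse U10, whose VIP library was the highest, nor by edgeR or with the pyramidal marker score as a covariate. Of the metabotropic list, Homer2, a scaffold of these receptors, was lower in SST neurons at 294 ± 201 in SST and 846 ± 360.5 in VIP libraries (log2 difference -1.74, adjusted p = 0.00641).

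Receptors for monoamines, acetylcholine and endocannabinoids were mostly not called, and those that were pointed mainly to VIP neurons. The called share over all genes tested was 2.34%. Htr3a, the serotonin-gated cation channel that marks CGE-born interneurons, was at 0 in 8 of 10 SST libraries and its highest value there was 2.11 normalized counts. In VIP libraries its lowest, median and highest values were 254, 1171 and 1894, and the log2 difference was -7.99 (adjusted p = 1.54e-12). Htr2c, a Gq-coupled serotonin receptor, averaged 88.3 ± 111 in SST and 705 ± 309 in VIP libraries (log2 difference -3.70, adjusted p = 1.51e-04). No other of the 12 serotonin receptors tested was called. Adra1b, an alpha-1 adrenergic receptor, had 0, 56.5 and 169 in SST libraries and 289.8, 600.7 and 1447 in VIP libraries, without overlap (log2 difference -4.16, adjusted p = 1.11e-05), and was the only 1 of 9 dopamine and noradrenaline receptors called. Cnr1, the presynaptic cannabinoid receptor, had 931, 1635 and 2373 in SST libraries and 5269, 6523 and 9089 in VIP libraries, without overlap (log2 difference -2.03, SE 0.15, adjusted p = 4.37e-24). The enzymes that make and degrade endocannabinoids were not called. Chrm2, a Gi-coupled muscarinic receptor, was higher in SST neurons at 220.1 ± 215 in SST and 21.9 ± 32.3 in VIP libraries (log2 difference 3.35, adjusted p = 0.0389), but not without 7 of the 10 mice in turn.

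The enzymes of GABA synthesis did not move together. Gad2, which makes GABA near synaptic vesicles, had 2897, 4289 and 5713 normalized counts in SST libraries and 1289, 2258 and 3216 in VIP libraries, higher in 10 of 10 mice by 0.94 (SE 0.15, adjusted p = 8.92e-07). Gad1, which makes most cellular GABA, averaged 4139 ± 983 in SST and 4245 ± 934 in VIP libraries and was not called (log2 difference -0.04, adjusted p = 0.943). The vesicular transporter Slc32a1, at 1113 ± 353 in SST and 733 ± 369 in VIP libraries, was not called either. Of 19 GABA receptor genes, 1 was called, against a called share of 2.34% over all genes tested. Kctd8, an auxiliary subunit that sets the kinetics of GABA-B receptors, averaged 293 ± 136 in SST and 7.78 ± 16 in VIP libraries (log2 difference 5.24, adjusted p = 3.11e-05). It was at 0 in 7 of 10 VIP libraries.

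Most voltage-gated channel genes were not called, but some differences were large. The counts below stand beside a called share of 2.34% over all genes tested. Of 42 potassium channel genes, 2 were higher in SST neurons and 5 lower. Kcnc2, a channel of fast repolarization, averaged 2412 ± 720 in SST and 861 ± 522 in VIP libraries (log2 difference 1.64, adjusted p = 1.62e-07), and Kcna2, a channel of axons, 3677 ± 1009 in SST and 1802 ± 498 in VIP libraries (log2 difference 1.03, adjusted p = 3.34e-06). Lower were Kcnt2, a sodium-activated channel, at 184 ± 187 in SST and 935 ± 767 in VIP libraries (log2 difference -2.71, adjusted p = 4.61e-04), Kcnn2, a calcium-activated channel, at 131 ± 151 in SST and 559.9 ± 281 in VIP libraries (log2 difference -2.76, adjusted p = 0.0036), and Kcnq5, a channel of the M current, at 391 ± 303 in SST and 939 ± 259.7 in VIP libraries (log2 difference -1.51, adjusted p = 0.0079). Kcnh3 and Kcnh1 made up the 5, and Kcnh1 lost its call when any 1 of 6 mice was left out. The alpha-2-delta subunits of calcium channels went opposite ways: Cacna2d2 was higher at 1059 ± 366 in SST and 193 ± 139.8 in VIP libraries, without overlap (log2 difference 2.71, adjusted p = 2.62e-06), and Cacna2d1 was lower at 361 ± 133 in SST and 1217 ± 466 in VIP libraries (log2 difference -1.73, adjusted p = 2.75e-04). Cacnb2, a beta subunit, and Cacna1h, a low-threshold pore, were lower, with log2 differences of -1.73 and -1.46. Cacnb2 was not called without mouse U9, and Cacna1h lost its call when any 1 of 3 mice was left out. The sodium channel pore Scn1a was higher at 3123 ± 792 in SST and 2114 ± 658 in VIP libraries (log2 difference 0.58, adjusted p = 0.0318), though not without 5 of the 10 mice in turn. No HCN channel was called. Asic4, of the acid-sensing channel family, was among the genes with the largest differences, at 13.9 ± 23.9 in SST and 588 ± 209.6 in VIP libraries (log2 difference -6.02, adjusted p = 1.49e-07).

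**Figure D3:**
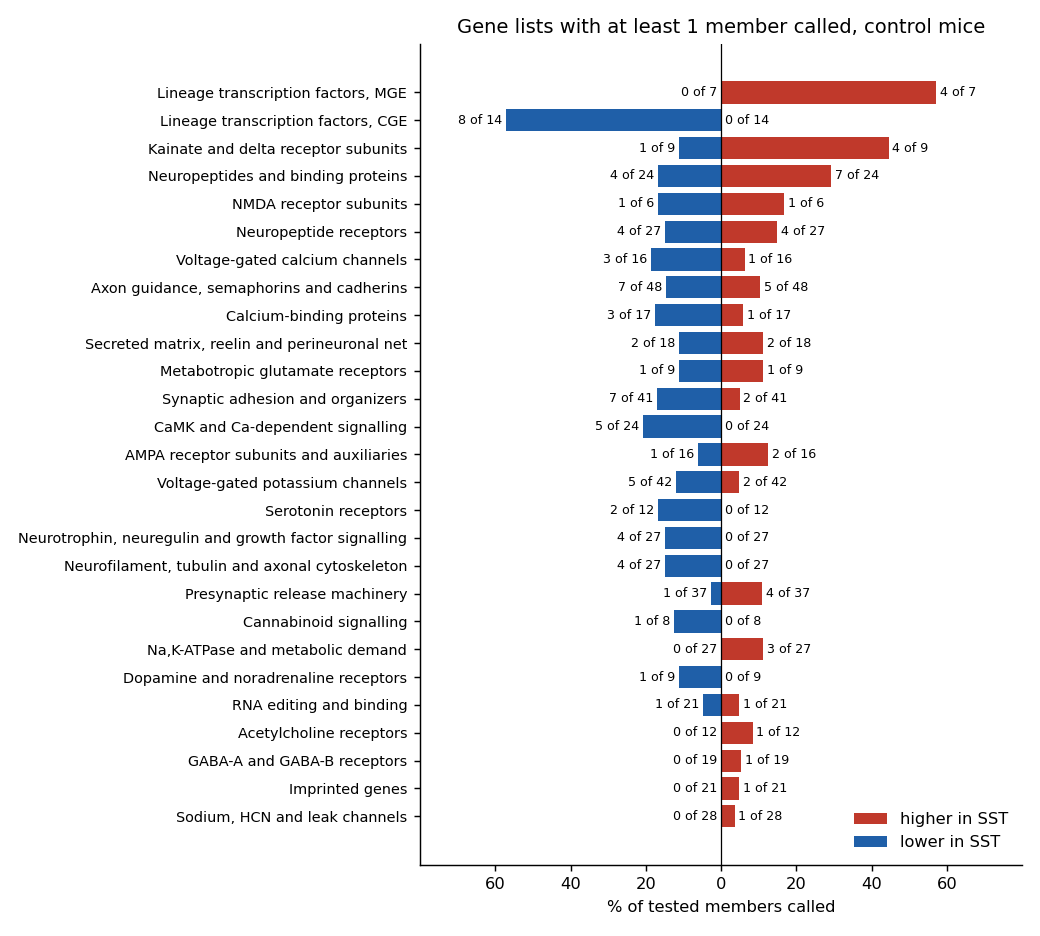
Share of tested members called in each gene list that had at least 1 call, in percent, with members higher in SST neurons to the right in red and lower to the left in blue. Numbers beside the bars give called members of tested members. Over all genes tested, 2.34% were called. The MGE factor list reaches farthest right, with 4 of 7, and the CGE factor list farthest left, with 8 of 14.

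At the presynaptic side 2 complexins, proteins that clamp and trigger vesicle fusion, went opposite ways. Cplx1 averaged 3347 ± 700 in SST and 1759 ± 858 in VIP libraries and was higher by 1.04 (adjusted p = 3.61e-04). Cplx2 had 1786, 3296 and 4852 normalized counts in SST libraries and 5721, 6796 and 7677 in VIP libraries, without overlap, a difference of -1.09 (SE 0.12, adjusted p = 2.78e-12). Unc13c, a priming factor of the Munc13 family, was higher at 932 ± 355 in SST and 117 ± 165 in VIP libraries (log2 difference 4.12, adjusted p = 6.20e-07). Pclo, a scaffold of the active zone, averaged 13550.5 ± 754 in SST and 9658 ± 1414 in VIP libraries (log2 difference 0.50, adjusted p = 2.59e-07), and Syt1, the calcium sensor of fast release, 11256 ± 829 in SST and 8334 ± 1802 in VIP libraries (log2 difference 0.47, adjusted p = 3.88e-05). The other 32 of 37 release genes were not called, Bsn and Vamp2 among them.

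Synaptic adhesion genes were more often lower than higher in SST neurons, 7 against 2 of 41, with a median log2 difference of -0.06. Ptprd, a receptor phosphatase that organizes synapses, averaged 1851 ± 721 in SST and 4880.1 ± 884 in VIP libraries, without overlap (log2 difference -1.49, adjusted p = 1.12e-08). Nrxn2, a presynaptic neurexin, averaged 3926 ± 617 in SST and 6088 ± 1149 in VIP libraries (log2 difference -0.63, adjusted p = 1.11e-04). Cbln2, a secreted neurexin ligand, averaged 29.2 ± 46.6 in SST and 714 ± 339.8 in VIP libraries, without overlap (log2 difference -5.54, adjusted p = 2.95e-07). Nptxr, the neuronal pentraxin receptor, was also lower, at 2889.7 ± 486 in SST and 5296 ± 1315 in VIP libraries (log2 difference -0.85, adjusted p = 1.31e-06). Against these, Elfn1 was higher at 2862 ± 740 in SST and 1112 ± 435 in VIP libraries (log2 difference 1.40, adjusted p = 7.29e-08). This postsynaptic protein of SST dendrites recruits glutamate receptors to the presynaptic terminals that contact them.

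Of 48 guidance and cadherin genes, 5 were higher and 7 lower. Unc5d, a netrin receptor, was higher at 761 ± 461 in SST and 149 ± 140 in VIP libraries (log2 difference 2.91, adjusted p = 4.61e-04), and so were the cadherin Cdh9, at 531 ± 263 in SST and 109.5 ± 125 in VIP libraries (log2 difference 3.18, adjusted p = 0.00241), and the protocadherin Pcdh9, at 1899 ± 506 in SST and 904 ± 447 in VIP libraries (log2 difference 1.19, adjusted p = 5.84e-04). Sema5a, a semaphorin, was lower at 207 ± 203 in SST and 1134 ± 515 in VIP libraries (log2 difference -3.51, adjusted p = 1.69e-04), as was Plxna4, a semaphorin receptor, at 1277 ± 418 in SST and 2780.3 ± 621 in VIP libraries (log2 difference -1.15, adjusted p = 6.66e-06). The morphogen Wnt5a averaged 31.4 ± 42.1 in SST and 494 ± 150 in VIP libraries, without overlap (log2 difference -4.99, adjusted p = 1.09e-05).

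The reelin pathway was split between ligand and adaptor. Reln, the secreted glycoprotein reelin, had 6562, 9251 and 11199.6 normalized counts in SST libraries and 470.3, 1121 and 1896 in VIP libraries. No VIP library came near the lowest SST library, and the difference was 3.07 (SE 0.16, adjusted p = 1.00e-37), the smallest adjusted p outside the probed genes. Dab1, the intracellular adaptor that relays reelin signals, was lower at 495 ± 360.2 in SST and 1432 ± 407 in VIP libraries (log2 difference -1.80, adjusted p = 2.08e-05). Lrp8 and Vldlr, the reelin receptors, averaged 1463 ± 437 against 916 ± 232 and 551 ± 242 against 1002 ± 718 in SST against VIP libraries and were not called. Col19a1, a collagen, was higher at 2634 ± 446 in SST and 852 ± 543 in VIP libraries, without overlap (log2 difference 1.95, adjusted p = 3.40e-09).

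Of 27 genes of neurotrophin, neuregulin and other growth factor signalling, 4 were lower in SST neurons and none higher, with a median log2 difference of -0.74. Egfr, the receptor for epidermal growth factor, had 0, 0.528 and 178 normalized counts in SST libraries and 278, 1288 and 1893 in VIP libraries, without overlap, and was at 0 in 5 SST libraries (log2 difference -6.43, adjusted p = 4.02e-10). Erbb4, the neuregulin receptor of interneurons, had 734, 1736 and 3416 in SST libraries and 3243, 5032 and 7058 in VIP libraries, lower in 10 of 10 mice with an overlap of the ranges (log2 difference -1.60, SE 0.16, adjusted p = 8.60e-15). Ntrk3, the neurotrophin-3 receptor, averaged 2289 ± 599.8 in SST and 4069 ± 632 in VIP libraries (log2 difference -0.85, adjusted p = 2.23e-05). Igfbp5, a binding protein of insulin-like growth factors, averaged 930.4 ± 221 in SST and 1889.9 ± 872 in VIP libraries (log2 difference -0.93, adjusted p = 0.0104), and was not called without mouse U10.

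Of 24 genes of CaM kinase and calcium-dependent signalling, 5 were lower and none higher, with a median log2 difference of -0.24. Camk2a, the alpha subunit of CaM kinase II, had 4655, 6398 and 8734 normalized counts in SST libraries and 8862, 12148 and 14875 in VIP libraries, without overlap (log2 difference -0.93, SE 0.09, adjusted p = 2.43e-15). Its beta and delta relatives Camk2b and Camk2d differed by -0.64 and -1.36, the inhibitor Camk2n1 by -0.73 and the kinase Prkca by -1.46. Camk2b was not called without mouse U4 or U6. Camk2g, at 1829.9 ± 344 in SST and 1320.4 ± 614 in VIP libraries, was not called. Of the calcium-binding proteins, Calb1, calbindin, was higher in SST neurons at 1854 ± 348 in SST and 328 ± 172 in VIP libraries, without overlap (log2 difference 3.04, adjusted p = 0.00162). Caln1, Necab1 and Ncald were lower, with log2 differences of -2.01, -1.89 and -0.76, and Ncald lost its call when any 1 of 3 mice was left out. Calb2, calretinin, a marker of some VIP neurons, averaged 533 ± 373 in SST and 922 ± 542 in VIP libraries and was not called. Sez6, a complement-repeat protein of dendrites, was lower, with 78.1, 387 and 898 in SST libraries and 1323, 3063 and 3995 in VIP libraries, without overlap (log2 difference -2.88, SE 0.27, adjusted p = 3.82e-16).

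Of 27 genes of the sodium pump and metabolic demand, 3 were higher in SST neurons and none was lower. Atp1b1, a beta subunit of the pump, averaged 8759 ± 998 in SST and 5805 ± 906 in VIP libraries, without overlap (log2 difference 0.60, adjusted p = 1.64e-06), and Atp2b3, a plasma membrane calcium pump, 1321 ± 233 in SST and 722 ± 288 in VIP libraries (log2 difference 0.97, adjusted p = 0.0328). Atp2b3 lost its call when any 1 of 5 of the 10 mice was left out, or with the pyramidal marker score as a covariate. Atp1b1 overlaps Nme7 on the opposite strand. Map2, a dendritic microtubule protein, was lower at 6606 ± 1452 in SST and 8777 ± 1007 in VIP libraries (log2 difference -0.43, adjusted p = 0.00188). Ank2, Sptbn1 and Sptan1, of the spectrin and ankyrin skeleton, were lower, with log2 differences of -0.28, -0.29 and -0.26, and these 3 small differences were not called with TMM factors or with scaling to protein-coding reads. Ank2, Sptbn1 and Sptan1 also lost the call when any 1 of 4, 5 and 7 mice, in that order, was left out.

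Nos1, the neuronal nitric oxide synthase of a subset of SST neurons, had 1321, 2818 and 9988 normalized counts in SST libraries and 452, 989.8 and 1343 in VIP libraries (log2 difference 1.72, SE 0.22, adjusted p = 2.70e-10). The SST libraries of mice U4 and U10, at 6476 and 9988, stood above the others, which did not exceed 2974. The imprinted gene Peg3 averaged 10569 ± 1392 in SST and 7111 ± 1233 in VIP libraries (log2 difference 0.58, adjusted p = 4.60e-07) and was the only 1 of 21 imprinted genes called. Elavl2, an RNA-binding protein of neurons, was higher at 1121 ± 385 in SST and 391.8 ± 279 in VIP libraries (log2 difference 2.005, adjusted p = 0.00993), and was not called without mouse U3 or U10.

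Adarb2 had the largest difference outside the probed genes. This relative of RNA-editing enzymes, without known editing activity, had 0, 8.89 and 425 normalized counts in SST libraries and 4134, 6326 and 8464 in VIP libraries, a difference of -8.44 (SE 0.52, adjusted p = 4.85e-30). Rgs12, a regulator of G protein signalling, had 6.67, 56.7 and 206 in SST libraries and 1125, 1681 and 3118 in VIP libraries, without overlap (log2 difference -5.02, adjusted p = 7.26e-14). Pde5a, a phosphodiesterase of cyclic GMP, averaged 14.4 ± 24.9 in SST and 607.1 ± 293 in VIP libraries, without overlap (log2 difference -5.75, adjusted p = 3.15e-07). On the other side, Lypd6b averaged 519 ± 276 in SST and 0.5 ± 1.58 in VIP libraries (log2 difference 6.51, adjusted p = 8.70e-08) and was at 0 in 9 of 10 VIP libraries. Its relative Lypd6, a modulator of nicotinic receptors, averaged 1616 ± 465 in SST and 163 ± 197 in VIP libraries, without overlap (log2 difference 4.76, adjusted p = 1.65e-08). Moxd1, a monooxygenase relative, averaged 306 ± 203 in SST and 9.02 ± 18.6 in VIP libraries (log2 difference 5.05, adjusted p = 6.42e-05), and Tmem132c, a membrane protein, 636 ± 371 in SST and 46.8 ± 70.3 in VIP libraries (log2 difference 4.59, adjusted p = 4.68e-05).

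No call was made in lists of general cell function. None of 66 nuclear genes of oxidative phosphorylation, 78 cytosolic ribosomal proteins, 13 mitochondrially encoded proteins or 23 immediate early genes passed the test in limma. The medians of these lists were 0.32, 0.33, -0.12 and -0.26, against -0.05 over all genes. Over all genes tested 2.34% were called. Lists of this size would hold few calls at that share, so the absence of calls does not set them apart. The log2 difference was above 0 for 51 of the 66 oxidative phosphorylation genes and 57 of the 78 ribosomal proteins. It was above 0 for 3 of the 13 mitochondrially encoded proteins and 9 of the 23 immediate early genes, against 47.5% of all genes tested. These shares were not tested.

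Markers of other cells were read beside these results. In bulk libraries, fewer cells of a type and less RNA per cell cannot be told apart. The 19 measured pyramidal markers summed to 13711 to 25084 normalized counts in SST and 21464 to 35837 in VIP libraries, lower in SST in 10 of 10 mice (two-sided exact permutation test, p = 0.00195, the smallest the design allows, adjusted p = 0.0137). Of 19, 3 were called lower and none higher: Slc17a7, the vesicular glutamate transporter, at 3262 ± 990.3 in SST and 4794 ± 1498 in VIP libraries (log2 difference -0.55, adjusted p = 0.00738) against 14218 ± 2014 in PYR libraries, together with Camk2a and Nptxr. Slc17a7 was not called without mouse U3 or U4. Camk2a averaged 6354 ± 1321 in SST and 12009 ± 1967 in VIP libraries, against 10372 ± 1507 in PYR libraries, so its VIP level was not below its PYR level. The other 16 summed to 3517 to 8253 in SST and 3948 to 6578 in VIP libraries, lower in 7 of 10 mice. The 6 defining pyramidal markers summed to 2902 to 6340 in SST and 4602 to 9198 in VIP libraries. This sum was higher in SST in 1 of 10 mice (adjusted p = 0.0205 by the same exact permutation test). Without Slc17a7 the other 5 summed to 288 to 1271 in SST and 682 to 1862 in VIP libraries, lower in 7 of 10 mice. Of the defining pyramidal markers, none was at 0 in every library of a type, and Emx1 was at 0 in 6 libraries of each. The part of pyramidal RNA in the difference of Camk2a, Nptxr and the CaMK list was not tested. With the pyramidal marker score of each library as a covariate, 403 genes were called, and 327 of the 426 were among them.

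The 11 astrocyte markers summed to 5398 to 9556 normalized counts in SST and 6721 to 16498 in VIP libraries, lower in SST in 10 of 10 mice (adjusted p = 0.0137 by the same exact permutation test). Slc1a2, the astrocytic glutamate transporter, and Aldoc, an aldolase, were lower, at 5503 ± 928 in SST and 8994 ± 2223 in VIP libraries (log2 difference -0.69, adjusted p = 1.57e-07) and 347 ± 188 in SST and 944 ± 358 in VIP libraries (log2 difference -1.53, adjusted p = 0.00869). The other 9 summed to 404 to 3084 in SST and 853 to 2714 in VIP libraries, and none of Aqp4, Gfap and Slc1a3 was called or at 0 in every library. The part of astrocyte RNA in the differences of Slc1a2 and Aldoc was not tested. No marker of oligodendrocytes (10 tested), their precursors (6), microglia (9) or vessels (8) was called. The oligodendrocyte markers summed to 1279 to 4616 in SST and 541 to 5546 in VIP libraries, the highest of all in the VIP library of mouse U3. Of 13 tested genes on the PV marker list, 4 were higher and 1 lower, although Pvalb, Syt2 and Tac1, which define PV neurons, were not called. Kcnc2, Scn1a, Calb1 and Lgals1 were higher and Vwc2 lower. Lgals1 lost its call when any 1 of 5 of the 10 mice was left out, Vwc2 was not called without mouse U4 or U6, and edgeR called neither. The list summed to 8355 to 12326 in SST and 5526 to 10923 in VIP libraries, higher in 9 of 10 mice, and without these 5 genes to 2087 to 3964 and 2419 to 5265, lower in 8 of 10 mice.

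**Figure D4:**
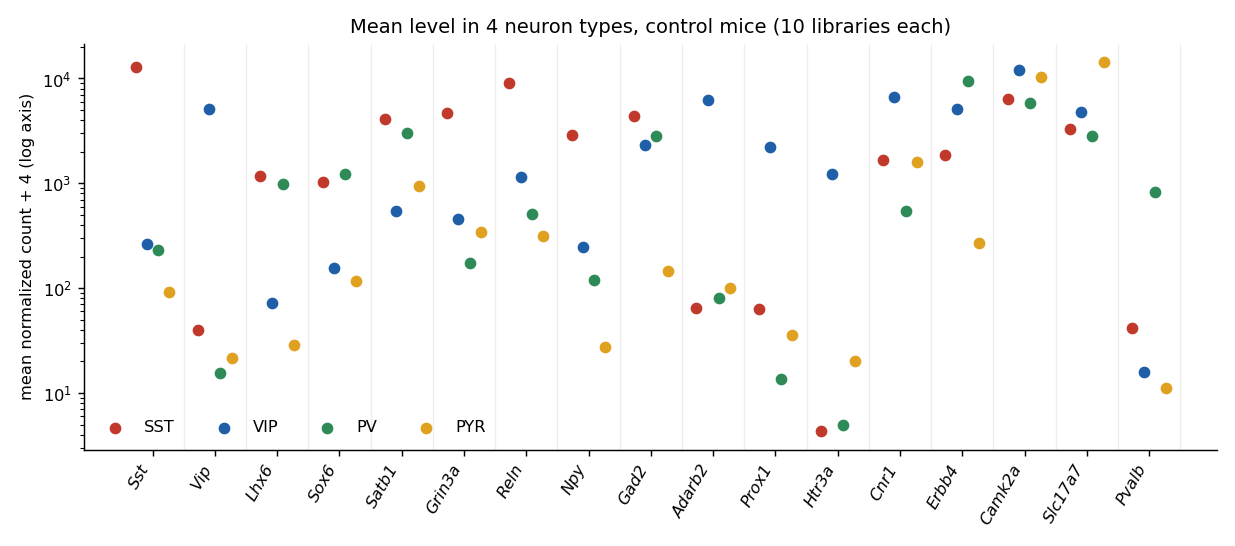
Mean normalized count + 4 on a log axis for 17 genes in SST, VIP, PV and PYR libraries of control mice, with 10 libraries per type. Lhx6, Sox6 and Satb1 stand as high or nearly as high in PV as in SST libraries, Grin3a and Reln are highest in SST libraries, Adarb2, Prox1, Htr3a and Cnr1 are highest in VIP libraries, and Camk2a in VIP libraries lies near its PYR level.

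The levels in PV and PYR libraries place the differences. Lhx6, Sox6 and Satb1 averaged 974 ± 242, 1231 ± 394 and 2989 ± 830.4 normalized counts in PV libraries. Those levels lay within the range of the SST libraries, which PV neurons share an origin with. Grin3a, Reln and Npy averaged 168 ± 189, 502 ± 371 and 115 ± 131 in PV libraries, nearer to VIP than to SST libraries. Gria1 averaged 9861 ± 2115 in PV and 4376 ± 631 in PYR libraries, close to SST and to VIP libraries in that order. Erbb4 averaged 9404 ± 1714 in PV libraries, above both types, and 268 ± 157 in PYR libraries. Adarb2, Prox1 and Htr3a averaged 76.6 ± 159, 9.63 ± 16.1 and 0.925 ± 1.95 in PV libraries.

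The same contrast in the UCMS mice, which share no library with the control mice, called 353 genes higher in SST neurons (1.89% of 18704 tested) and 414 lower (2.21%). Of the 426 genes called in control mice, all were tested in UCMS mice, 416 had the same sign there and 320 were called with it. Those 320 are 75.1% of the control calls and 41.7% of the 767 UCMS calls. None was called in the opposite direction. Over the 15922 genes tested in both arms, 61.1% had the same sign. Adarb2 differed by -8.02, Reln by 3.34, Grin3a by 3.33, Lhx6 by 6.17 and Npy by 4.71 in UCMS mice, and all 5 were called there. Of the members described above, Gria3, Cacnb2, Homer2, Chrm2, Grik4, Gsg1l, Ncald, Sptbn1, Atp2b3, Kcnh1 and Vwc2 were not called in UCMS mice.

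**Figure D5:**
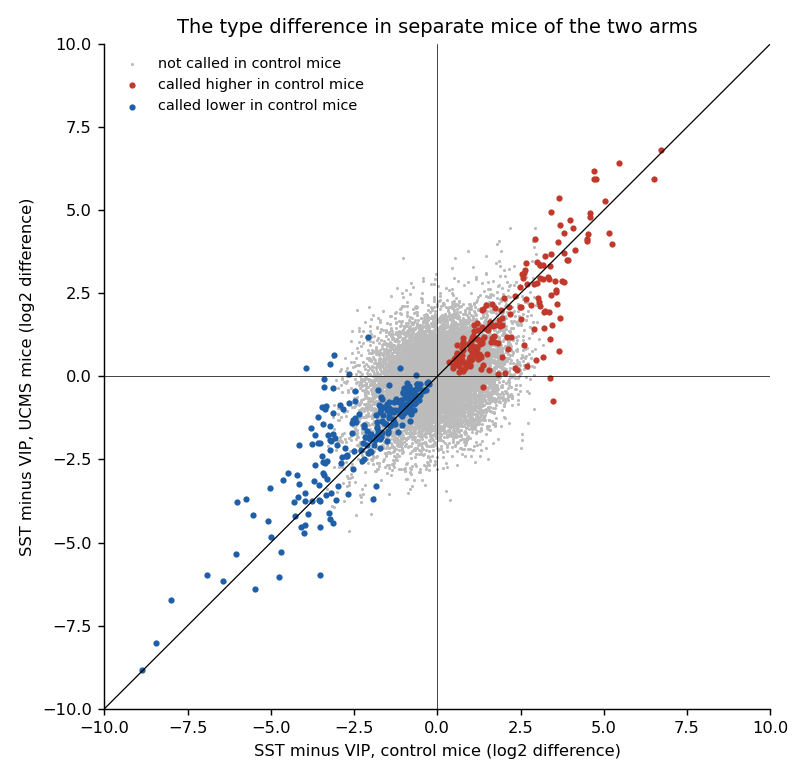
Log2 difference SST minus VIP of each gene in control mice (x axis) and in UCMS mice (y axis), from separate animals. Red and blue points are the genes called higher and lower in control mice, grey points were not called, and the line marks equal differences. Of the 426 called genes, 416 lie on the same side of 0 in both arms.

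Whether the type difference itself differed between the arms was tested as an interaction over 40 libraries. None of 18405 genes was called by limma (0% of those tested; the lowest adjusted p was 0.998), and 854 had an unadjusted p under 0.05, which is 4.64%. The edgeR test on recovered reads called 2, the unnamed models Gm24187 and Gm10925, and DESeq2 called 260.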

How the data were processed

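RNA of 130 laser-captured cells per library was made into libraries with the SMARTer Stranded Total RNA pico kit, per the labels' protocols. The submitters' processing notes list HISAT2, SAMtools 1.3, DESeq2 and the GRCm38 (mm10) genome. Which program counted reads, with which strand setting and annotation, is not given in those notes. The deposited signal values are gene counts scaled by 1 size factor a library, as the values in the deposited table show: all of them were whole multiples of what 1 read is worth, within 0.001 reads. Read numbers were recovered from those steps and ran from 7.82 to 13.1 M in SST and from 3.64 to 11.9 M in VIP control libraries. The table held 38879 genes, and 183 had no symbol.

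Genes with a mean of at least 10 normalized counts were tested with limma 3.58.1 (trend, robust, R 4.3.3) on log2(normalized count + 4), with the mouse as a block and Benjamini-Hochberg adjustment at 0.05 over all genes tested. Fold changes on this scale understate the change of low genes. Pairing comes from the labels, which give the 10 control mice the same numbers in each type. Same-mouse libraries deviated together with a median correlation of 0.03, and 0 of 10 pairs passed 0.1. Library measures were compared with exact permutation tests over 1024 sign flips, with Benjamini-Hochberg adjustment over 14 measures. Replicates are separate mice. The fits were tested on simulated data. Alternatives used edgeR 4.0.16 and DESeq2 1.42.0 on recovered reads, other scalings, filters and pseudocounts, covariates and each mouse left out.

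The text names, apart from the probed genes, unnamed models and mitochondrial genes, the 12 genes per direction with the largest fold change among those called, at least 2-fold, at 200 normalized counts or more in the higher type and in one direction in 10 of 10 mice, the 6 per direction with the smallest p, and up to 6 members of each list with the smallest p. Cort, Penk, Kcnh1, Pcsk2 and Nxph2, and the uncalled Calb2, Camk2g, Crh, Gad1, Slc32a1, Nr2f2, Npas1 and Vldlr, fall outside this rule and were picked after their values were seen. Tacr1 and Kit, and the uncalled Bsn, Vamp2, Syt2, Tac1, Chodl and Chat, fall outside it as well. Pvalb and Gfap, also uncalled, are named as markers of their cell types. The comparison and the gene lists were chosen with earlier results of these data known. Some results on single genes are not reported here.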

Additional observations from a re-analysis of the deposited data

Results flagged for a closer look

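Each value of the genes named in the report and in the other observations, and each summed marker level, was checked within its 10 SST or its 10 VIP control libraries for 1 library standing apart by Dixon's criterion. Of 314 such groups, 49 had one, or 15.6%. The criterion's rate of 1 in 20 holds for normally distributed values. These values are skewed counts with many at 0, so the share cannot be set against that rate. A gene at 0 in all libraries of a type but 1 is flagged whatever the remaining value. Chat in SST libraries and Chodl, Cort, Lypd6b and Nxph2 in VIP libraries were such genes. Values are normalized counts, and each was the highest of its 10 libraries unless called the lowest. No cause was tested.

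The SST library of mouse U10 stood apart for Aqp4 at 508, Cplx1 at 1603 as the lowest, Dab1 at 1384, Kcnt2 at 659.7 and Nfix at 2087. It also stood apart for Pvalb at 279, Sall1 at 284, Unc5d at 1913 and Vip at 304. In mouse U4 the SST library stood apart for Camk2b at 1162 as the lowest, Egfr at 178, Grik3 at 8478, Kcnn2 at 526 and Moxd1 at 817. The same library did so for Npy1r at 422. The SST library of mouse U6 stood apart for Kcnq5 at 1118, Pde5a at 80.04, Scn1a at 4963 and the sum of microglia markers at 1446. In mouse U8 the SST library stood apart for Adarb2 at 425 and Chat at 49.1. The SST library of mouse U1 stood apart for Pdyn at 1879. In mouse U3 the SST library stood apart for Grpr at 67.5.

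The VIP library of mouse U3 stood apart for Aqp4 at 873, Kcnc2 at 2156, Kcnh3 at 1773, Npy at 969 and Syt2 at 899.9. It also stood apart for the sum of oligodendrocyte markers at 5546. In mouse U10 the VIP library stood apart for Gad1 at 6434, Grin3a at 202 as the lowest, Gsg1l at 1228, Igfbp5 at 4002 and Sox6 at 704. The VIP library of mouse U4 stood apart for Elavl2 at 1043, Slc17a7 at 8312, Sstr1 at 428 and the sum of defining pyramidal markers at 9198. In mouse U8 the VIP library stood apart for Chodl at 50.04, Emx1 at 127, Lypd6b at 5.00 and Tac1 at 22.2. The VIP library of mouse U1 stood apart for Lrp8 at 1453 and Moxd1 at 56.9. In mouse U2 the VIP library stood apart for Nxph2 at 0.948 and Pvalb at 82.4. The VIP library of mouse U6 stood apart for Unc13c at 548 and Vwc2 at 1169. In mouse U5 the VIP library stood apart for Cort at 21.8.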

How the results depend on the processing

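In control mice the counts of 189 higher and 237 lower genes stayed within 1.5 times their size under the planned settings except 2: no filter on low values called 97 and 128, and DESeq2 on recovered reads called 596 and 689. Without the filter 31510 genes were tested. DESeq2 shifted the median log2 difference of all genes to -0.16, against -0.05, and also called 844 higher and 911 lower genes in UCMS mice. The interaction, with no gene called by limma, had 2 called by edgeR and 260 by DESeq2; the cause was not tested. With no replicate block, 184 higher and 238 lower genes were called in control mice, 334 and 400 in UCMS mice and 0 in the interaction, so the block changed none of these counts by over 1.5 times. With each mouse left out in turn, 155 to 181 higher and 203 to 237 lower genes were called in control mice, 305 to 345 and 337 to 470 in UCMS mice, and 0 to 0 in the interaction. No called gene changed sign in control mice under the settings run. Of 117 named genes called, 86 were called under every setting and with every mouse left out, 30 were lost under at least 1 setting and 22 without at least 1 mouse. Among others, Grin2b, Lypd6, Sema5a, Grik1, Grik4, Sstr1, Chrm2 and Kcnh1 were not called by edgeR. Calb1, Grik4, Sstr1, Elavl2 and Kcnh1 were among those not called with a pseudocount of 1. With the pyramidal marker score as a covariate, the calls lost included Aldoc, Grik4, Sstr1, Chrm2, Ncald, Igfbp5 and Kcnh1. At 3.64 to 13.1 M reads per library, genes below a mean of 10 normalized counts were not tested.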

Other observations

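Genes that mark subsets of SST neurons varied widely between the 10 SST control libraries, each of 130 cells. Chodl, a marker of the long-range projecting SST neurons that also carry Nos1, ran from 0 to 430.2 normalized counts with a median of 45.1 and was at 0 in 2 libraries. Tacr1, the substance P receptor, ran from 0 to 501 with a median of 123.9. Grik1 ran from 958 to 6318, and its coefficient of variation was 61.7%, against 73.2% for Nos1 and 40.4% for Npy. The SST libraries of mice U4 and U10, the highest for Nos1, were also the highest for Grik1, at 5107 and 6318. Chodl was at 0 in the SST library of U4, at 430.2 in that of U10 and at 373 in that of U3, where Nos1 was at 2974.

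Subset genes of VIP neurons varied as well. Calb2 ran from 117.3 to 2128 normalized counts, Crh from 0 to 942 and Chat, the enzyme of acetylcholine synthesis, from 0 to 233 in VIP control libraries. Kit, a receptor tyrosine kinase, averaged 146 ± 83.5 in SST and 1353 ± 763 in VIP libraries, and it was picked after its values were seen. The VIP library of mouse U3 held the highest Sst and Npy values of its type, at 1081 and 969.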
